A study of Homo sapiens with 12 samples.

Results

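The MYC, PVT1 and MYCL loci, with the genes of the MYC partner MAX and the MYC antagonist MXI1, were examined in peak lists from Huh7, a human hepatocellular carcinoma cell line. The 5 genes were chosen by name, with earlier results of these data known. H3K27ac ChIP-seq peaks were taken from the hg19 windows chr8:128700000-129150000 for MYC and PVT1 and chr1:40340000-40390000 for MYCL. HSF1 and H3K27ac CUT&Tag peaks were taken within the hg38 gene bodies plus 50 kb to either side, and for MAX and MXI1 also within 1 kb of any transcript start. The windows held 25 of 41082 H3K27ac peaks in cells transfected with siNC, a control siRNA, and 27 of 45586 in cells transfected with siHSF1, both collected 48 h after transfection with Lipofectamine RNAiMAX. The gene bodies with their flanks held 6 of 7147 HSF1 peaks and 0 of 1299 H3K27ac CUT&Tag peaks of untreated wild-type Huh7 cells. The labels do not name which siRNA against HSF1 the ChIP-seq cells received. Each condition had 1 library, which leaves the differences below without a check between replicates, and no test was run. The RNA-seq samples of the series were not analysed here, and the knockdown of HSF1 could not be checked in these lists.

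MYC proteins are transcription factors that bind the E-box CACGTG as a pair with MAX and raise the expression of genes for growth, ribosome production and metabolism. MXI1 and its relatives of the MXD family, together with MNT and MGA, pair with the same MAX and repress transcription, so that MYC and its antagonists compete for a shared partner. PVT1 is a long noncoding RNA gene next to MYC on chromosome 8, its body holds enhancers that contact the MYC promoter, and the pair is often gained together in liver and other cancers. MYCL is the MYC family member on chromosome 1. HSF1 is the heat shock transcription factor, and H3K27ac, acetylation of lysine 27 on histone H3, marks active promoters and enhancers.

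After removal of duplicates the siNC ChIP-seq library had 9795121 tags, and that of siHSF1 had 10793650. The peak caller extended tags to 297 bp in siNC and to 175 bp in siHSF1, and the median peak length was 575 bp and 334 bp. A pileup counts the extended tags that cover a summit, with no scaling for depth, and the shorter extension lowers it. The scaled pileup is this count per 1000000 tags of the library. Over the 19826 regions where a peak of each list overlapped, the median log2 ratio of siHSF1 to siNC was -0.01 for fold enrichment and -0.53 for scaled pileup, and values below are read against these medians. Of the CUT&Tag libraries, the HSF1 library kept 2712212 tags and the H3K27ac library 896393, or 5.70% of its tags. Intervals below are 95% intervals. Those of pileups and of their ratios cover counting error only. Those of shares and medians treat peaks, regions or genes as independent. None covers the spread between replicates.

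The sequences under the HSF1 peaks at the internal start of MXI1 and at MXD1 and MXD4 are shown because they are among the sites of the network comparison. MXD1 and MXD4 had the highest fold enrichment among the antagonists of MYC. The peak at the start of SMNDC1, downstream of MXI1, is shown as a peak within 50 kb of MXI1. Its summit was 34884 bp from the nearest MXI1 start, so it does not count in the network comparison. Only bases outside every annotated exon are given, on the plus strand of hg38, with the CCAAT box, the E-box and the GC box (the letters CCAAT in the first, CACGTG in the second, and GGGCGG in the last) in capitals on either strand. Where the summit was not exonic, the stretch covers 100 bp to either side of it.
MXI1 first peak, chr10:110226387-110226465: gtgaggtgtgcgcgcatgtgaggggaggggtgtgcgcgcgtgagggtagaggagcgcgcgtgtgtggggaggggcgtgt
MXI1 second peak, chr10:110226665-110226776: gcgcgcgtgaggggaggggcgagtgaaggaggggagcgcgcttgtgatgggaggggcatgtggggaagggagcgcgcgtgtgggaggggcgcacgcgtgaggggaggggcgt
MXI1 downstream peak at SMNDC1, chr10:110304992-110305192: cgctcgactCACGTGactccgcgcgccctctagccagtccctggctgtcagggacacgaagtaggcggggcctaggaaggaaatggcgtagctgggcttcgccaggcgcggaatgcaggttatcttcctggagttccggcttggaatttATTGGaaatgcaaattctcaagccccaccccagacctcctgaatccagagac
MXD1, chr2:69914595-69914795: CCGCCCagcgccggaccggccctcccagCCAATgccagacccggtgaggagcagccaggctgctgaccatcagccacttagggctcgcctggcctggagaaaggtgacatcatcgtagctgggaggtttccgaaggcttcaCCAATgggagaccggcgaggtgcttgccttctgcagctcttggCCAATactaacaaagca
MXD4, chr4:2262184-2262384: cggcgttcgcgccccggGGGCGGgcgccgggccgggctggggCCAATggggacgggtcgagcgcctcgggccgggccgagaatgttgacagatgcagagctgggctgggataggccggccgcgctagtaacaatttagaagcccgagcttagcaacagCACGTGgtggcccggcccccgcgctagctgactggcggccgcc

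The MXI1 stretches are runs of G-rich sequence that held none of the motifs. The stretch at SMNDC1 held a CACGTG and, on the minus strand, a CCAAT. At MXD1 there were 3 CCAAT boxes around the summit and 1 GC box on the minus strand, and at MXD4 1 CCAAT box, 1 E-box and 1 GC box. No sequence of chromosome 8 is given.

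H3K27ac at the MYC-PVT1 window was carried by few strong peaks and many weak ones in both conditions. The 25 siNC peaks ranged from 6 to 31 in pileup with a median of 9, and from 3.37 to 10.9 in fold enrichment with a median of 4.81. The 27 siHSF1 peaks ranged from 6 to 38 in pileup with a median of 9, and from 3.57 to 22.9 in fold enrichment with a median of 4.71. The window was rich in peaks: of consecutive 450 kb stretches of the genome, 4.95% held more than 25 siNC peaks and 5.34% held more than 27 siHSF1 peaks. The ratio of siHSF1 to siNC peak number was 1.08 in the window and 1.11 over the whole lists. The peaks covered 25.1 kb in siNC and 15.6 kb in siHSF1, a ratio of 0.623 beside 0.577 over the whole lists. Peak number and covered length at MYC and PVT1 thus moved nearly as much as they did genome-wide.

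**Figure D1:**
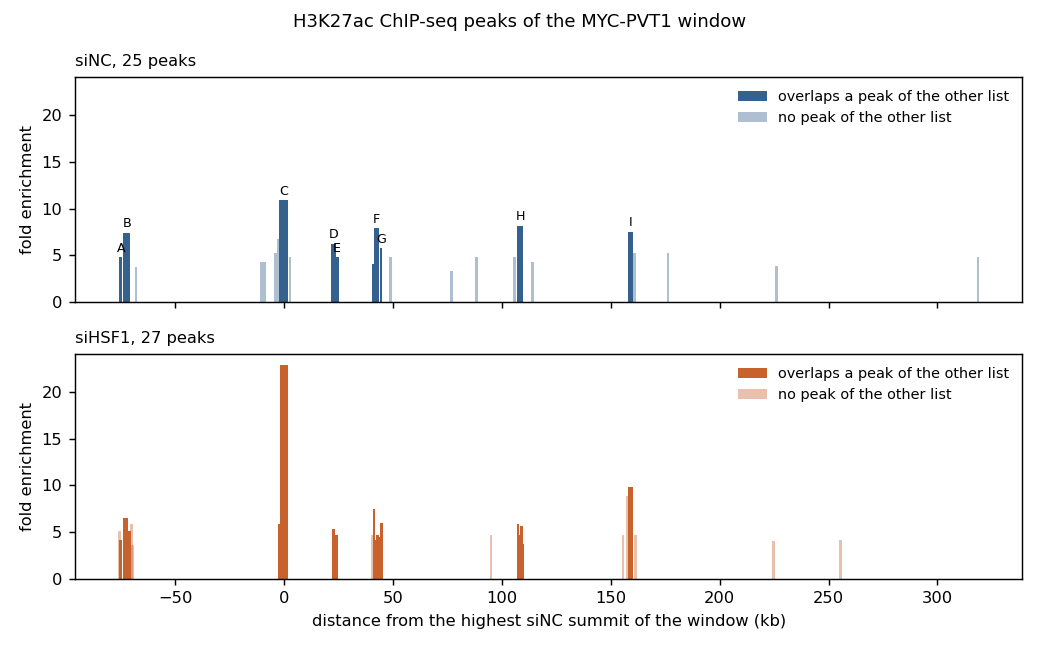
H3K27ac ChIP-seq peaks of the MYC-PVT1 window in siNC (top) and siHSF1 cells (bottom). The horizontal axis is the distance in kb from the highest siNC summit, bars span each peak (at least 1.2 kb wide so that they are visible), and their height is the fold enrichment. Dark bars overlap a peak of the other list, and letters name the 9 shared regions. Region C rises from 10.9 to 22.9, while the other shared regions stay below 10 in both lists.

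Overlapping peaks joined into 34 regions, of which 9 were shared, 15 held only siNC peaks and 10 only siHSF1 peaks. The shared regions, lettered A to I from left to right, held 10 siNC and 17 siHSF1 peaks. MYC lies to the left of PVT1 and both genes are read from left to right, so that regions A and B are on the MYC side. An hg19 annotation was not used here, and no peak of this window was assigned to an exon, intron or gene.

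Region C, chr8:128819736-128824192, was the highest of the window in both lists. In siNC cells it was 1 peak of 4294 bp with a summit pileup of 31 (21.1 to 44) and a fold enrichment of 10.9. In siHSF1 cells it held a peak of 3667 bp with a pileup of 38 (26.9 to 52.2) and a fold enrichment of 22.9, and a small peak of 471 bp beside it. The summits of the lists lay 8 bp apart. The fold enrichment was 2.1 times as high in siHSF1, a log2 ratio of 1.07, and 1.70% of all shared regions had a higher ratio. This share, like that for scaled pileup below, is for the largest ratio of the 9 shared regions. It is set against regions of all heights. The siHSF1 peak was outranked in fold enrichment by 19 of 45586 peaks, and the siNC peak by 2283 of 41082.

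Pileup and background both entered this ratio. The scaled pileup of region C went from 3.16 to 3.52, a log2 ratio of 0.15 (-0.57 to 0.89), so the rise in tags by itself was within counting error. It lay 0.68 above the median of all shared regions, and 4.64% of them had a higher ratio. The local background at region C, recovered from pileup and fold enrichment, was 1.93 tags in siNC and 0.70 in siHSF1. The latter is the lowest value that the caller could use in that library. The lowest value in siNC was 1.08 tags. This minimum grows with the number of tags and with the fragment extension, 297 bp in siNC and 175 bp in siHSF1. The parts that the input library and the fragment extension played in the rise of fold enrichment were not tested.

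Region B, chr8:128748538-128751643, was the main region on the MYC side. In siNC cells it was 1 peak of 3106 bp with a pileup of 17 (9.90 to 27.2) and a fold enrichment of 7.39. In siHSF1 cells the same stretch held 2 peaks with a summed length of 2668 bp, a highest pileup of 10 (4.80 to 18.4) and a highest fold enrichment of 6.47. The log2 ratio was -0.19 for fold enrichment and -0.91 (-2.19 to 0.30) for scaled pileup, and 82.1% of all shared regions had a higher ratio by the latter measure. The interval includes no change, and the intervals of the pileups overlap. Region A, a peak of 561 bp just to its left, went from a pileup of 9 to 6 and from a fold enrichment of 4.81 to 4.12.

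Regions D and E lie between C and the middle of the window. Region D, of 2061 bp in siNC and 635 bp in siHSF1, went from a pileup of 12 to 8 and from a fold enrichment of 6.26 to 5.30. Region E went from 9 to 7 in pileup and from 4.81 to 4.71 in fold enrichment. Region F went from 16 to 14 in pileup and from 7.91 to 7.47 in fold enrichment, with 2 peaks in siNC and 3 in siHSF1. Region G went from 11 to 10 in pileup and from 5.78 to 5.98 in fold enrichment. None of these 4 regions moved beyond the counting intervals of its summits.

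Region H, chr8:128929265-128932019, had the largest fall in fold enrichment of the 9. It was 1 peak of 2755 bp in siNC with a pileup of 16 and a fold enrichment of 8.18, and 4 peaks with a summed length of 1230 bp in siHSF1, the highest at a pileup of 10 and a fold enrichment of 5.88. Its log2 ratio of fold enrichment was -0.48, and 15.3% of all shared regions had a lower value. Region I, chr8:128980302-128982480, went from a pileup of 21 to 17 but from a fold enrichment of 7.50 to 9.79, with a local background of 1.93 tags in siNC and 0.839 in siHSF1. A pileup that falls beside a fold enrichment that rises, as at region I, shows how much the recovered background weighs in this window.

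Across the 9 shared regions the median log2 ratio of fold enrichment was -0.08 (-0.24 to 0.38), with 6 regions lower and 3 higher in siHSF1. The interval of the median is from order statistics and includes the -0.01 of all shared regions. By scaled pileup the median was -0.50 (-0.82 to -0.28) beside -0.53 over all shared regions, with 8 regions lower and 1 higher. The direction turned under the other scalings: with the scaled pileup also divided by the fragment length the median was 0.26 beside 0.24 over all shared regions, and with pileup over background without the added 1 it was 0.22 beside 0.29, in both cases with 2 regions lower and 7 higher. Under each scaling the window lay within 0.08 of the median of all shared regions. Of the 9 regions 1, region C, was at least 1.5 times higher in fold enrichment, where 11% of all shared regions were. None was at least 1.5 times lower, where 10.3% of all shared regions were. The count is close to the genome-wide share, and nothing about the window as a whole is read from it.

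**Figure D2:**
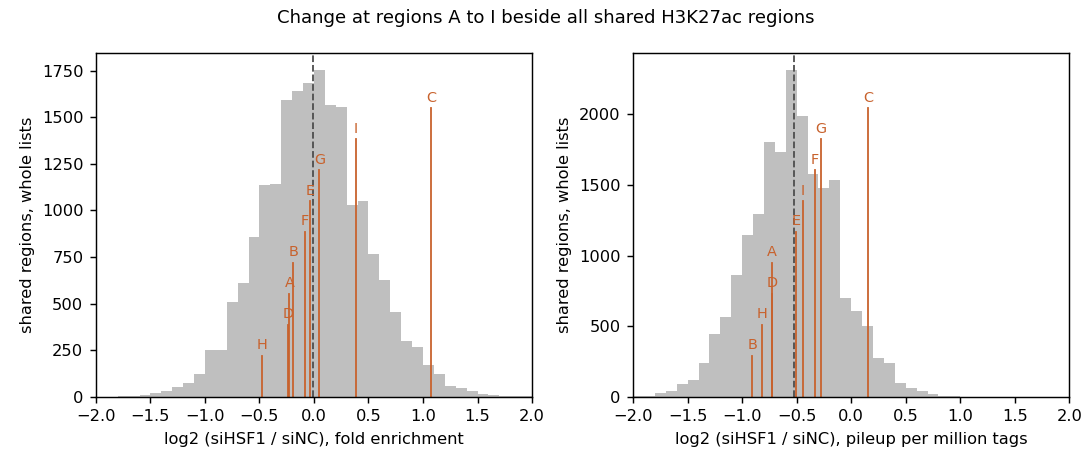
Log2 ratio of siHSF1 to siNC at all 19826 shared H3K27ac regions (grey histogram, dashed line at the median) with regions A to I marked. The left panel uses fold enrichment (median -0.01) and the right panel the pileup scaled for library size (median -0.53). Values beyond 2 on either side are drawn in the last bin. Region C is at 1.07 and 0.15, to the right of the other 8 regions in both panels.

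Of the 25 siNC peaks in the window, 15 had no overlapping siHSF1 peak, or 60% (Wilson interval 40.7% to 76.6%), where 48.3% of all siNC peaks had none. Of the 27 siHSF1 peaks, 10 had no overlapping siNC peak, or 37.0% (21.5% to 55.8%), where 25.4% of all siHSF1 peaks had none. Both intervals include the share of the whole list. The unshared siNC peaks ranged from 3.37 to 6.74 in fold enrichment. The highest was chr8:128819205-128819702, with a pileup of 13, just to the left of region C. The unshared siHSF1 peaks ranged from 3.57 to 8.83 in fold enrichment. The highest was chr8:128979484-128980092, with a pileup of 14, just to the left of region I. Both of the highest unshared peaks therefore flank a region that was shared. In siNC 4 peaks, and in siHSF1 5 peaks, were exactly as long as the extended tag, the shortest length the caller reports.

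Peaks of the 2 lists that lay within 12.5 kb of each other formed 10 groups. The group of 13.4 kb around region C held 6 siNC peaks and 2 siHSF1 peaks. It carried 37.3% of the window's signal in siNC and 56.1% in siHSF1, where signal is the scaled pileup above background times the peak length, summed over peaks. The group of 8.05 kb on the MYC side carried 14.6% and 12.3%. The group around region I carried 12.5% and 16.8%, and the group of 37.5 kb around region H 13.6% and 4.32%. Summed over the window the signal in siHSF1 was 0.601 of that in siNC, with the covered length at 0.623 and the mean signal per covered base at 0.965. Without the group around region C the ratio of the sums was 0.420, with the covered length at 0.606 and the mean at 0.694. The whole lists gave 0.388, 0.577 and 0.673. This split was chosen after seeing the data. Without the group the ratio of peak number was 1.32, beside 1.08 with it and 1.11 over the whole lists. All these sums are over peaks called separately in each library.

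Super-enhancers are stretches of closely spaced enhancers with an exceptional load of H3K27ac. When the peaks of each list were stitched over 12.5 kb and ranked by summed signal, the stitched region that holds region C was at rank 1265 of 14420 in siNC and at rank 423 of 13377 in siHSF1. The cutoff, where the ranked curve reaches a slope of 1, left 666 stitched regions above it in siNC and 642 in siHSF1, so the region was below the cutoff in siNC and above it in siHSF1. It spanned 13.4 kb in siNC and 4.36 kb in siHSF1. Over the whole lists the summed signal in siHSF1 was 0.388 of that in siNC. The summed signal of this stitched region was 14415.9 in siNC and 13034.5 in siHSF1, so its rank rose while its signal fell. With no stitching, its peak was at rank 1086 of 41082 peaks in siNC and at rank 93 of 45586 in siHSF1, and with cutoffs of 1374 and 1100 it was above the cutoff in both lists, so the difference between the lists in this call rests on the stitching. The stitched region on the MYC side was at rank 3053 in siNC and at rank 2521 in siHSF1, and that of region I at 3428 and 1871. All other stitched regions of the window were below the cutoff in both lists. These ranks rest on peak lists and not on aligned reads, and were read against 1 library per condition.

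The local background was at the caller's genome-wide minimum for 19 of the 25 siNC peaks, or 76.0%, and for 15 of the 27 siHSF1 peaks, or 55.6%. Over the whole lists 40.3% and 40.7% of the peaks were at the minimum. The highest background in the window was 1.93 tags in siNC and 1.92 tags in siHSF1, beside medians of 1.15 and 0.839 over the whole lists. Most peaks of the window thus had no more input signal around them than the caller's floor.

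The MYCL window of 50 kb held 0 peaks in siNC and 0 in siHSF1. The nearest siNC peaks lay 105 kb to the left of the window, with a pileup of 12 and a fold enrichment of 6.26, and 115 kb to its right, with the same pileup and fold enrichment. In siHSF1 the nearest peak to the right lay 115 kb away, with a pileup of 13 and a fold enrichment of 8.24. The nearest to the left lay 356 kb away, with a pileup of 8. Stretches of 50 kb without a peak were common, at 77.8% in siNC and 79.7% in siHSF1. No ratio can be given at MYCL. A missing peak says that no stretch passed the caller's q-value, not that the histone mark was absent.

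In untreated cells HSF1 peaks were found at MAX, MXI1 and PVT1, and none within 50 kb of MYC or MYCL. MYC, at chr8:127735434-127742951, had its nearest HSF1 peaks 434 kb beyond its right end, in PVT1, and 520 kb beyond its left end, near CASC19. MYCL, at chr1:39895428-39902256, had its nearest HSF1 peak 95.3 kb away, with a pileup of 9 and a fold enrichment of 6.85, in an exon of the unnamed gene ENSG00000284719. Of the 4 protein-coding genes, 2 had an HSF1 peak within the body or 50 kb, where 54.6% of all protein-coding genes did. The stretches searched ran from 107 kb at MYCL to 493 kb at PVT1, and the HSF1 list held 2.31 peaks per Mb.

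At MAX, chr14:65006174-65102695 on the minus strand, the HSF1 peak chr14:65102380-65102807 had its summit in an exon 76 bp from an annotated start. Its pileup was 9 (4.12 to 17.1) and its fold enrichment 6.02, above 27.7% of all HSF1 peaks. It was the only HSF1 peak within 50 kb of the gene. The peak is weak beside the median of all HSF1 peaks, a pileup of 13 and a fold enrichment of 6.85.

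At MXI1, chr10:110207605-110287365 on the plus strand, 2 HSF1 peaks lay about an internal start. The first, chr10:110226266-110226465, had a pileup of 10 and a fold enrichment of 5.00, with its summit 75 bp from a start and 18.7 kb from the outermost start. The second, chr10:110226665-110226945, had a pileup of 12 and a fold enrichment of 5.91, with its summit 11 bp from a start. Both summits were exonic, and no HSF1 peak lay within 1 kb of the outermost start of MXI1. A further peak, chr10:110304918-110305286, lay 17.6 kb beyond the end of MXI1 with a pileup of 15 and a fold enrichment of 8.51. Its summit was 154 bp from the start of SMNDC1, which encodes a splicing factor, so this strongest of the 3 peaks is at the promoter of the neighbouring gene.

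At PVT1, chr8:127794526-128187101 on the plus strand, HSF1 peaks lay about the far end of the gene and not at a start. The peak chr8:128176935-128177213 was intronic, with a pileup of 8 (3.45 to 15.8) and a fold enrichment of 5.92. Its summit was 56.8 kb from the nearest of the 132 annotated PVT1 starts and 438 kb from the nearest protein-coding start, a start of MYC. The peak chr8:128197102-128197379 was intergenic, 10.0 kb beyond the end of PVT1, with a pileup of 10 and a fold enrichment of 7.14. No gene of the neighbourhood list (CASC11, CASC19, PCAT1, CASC8, POU5F1B, PVT1, MYC and the miRNA genes MIR1204, MIR1205, MIR1206, MIR1207 and MIR1208, 12 of its 14 names being in the annotation) had an HSF1 peak within 1 kb of a start. Among all protein-coding genes 25.6% had one, but the list includes noncoding genes, for which no such share was computed. The miRNA genes lie within the body of PVT1, so the genes are not separate observations. Nothing about the neighbourhood is read from this count.

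**Figure D3:**
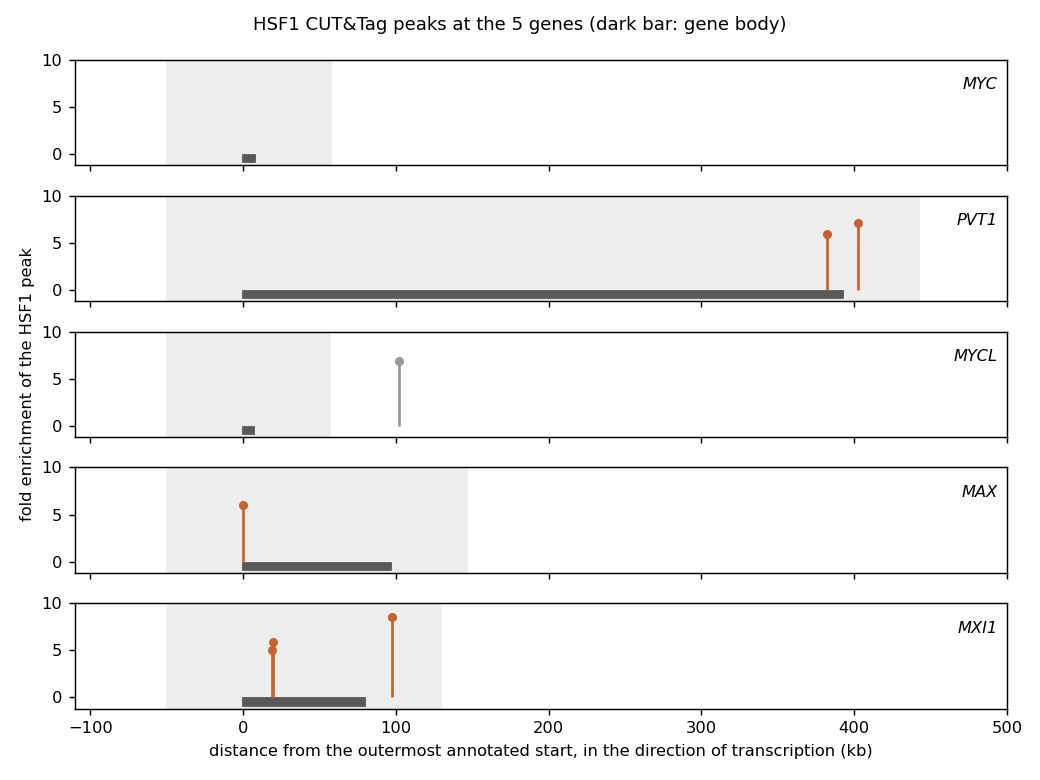
HSF1 CUT&Tag peaks at MYC, PVT1, MYCL, MAX and MXI1. The horizontal axis is the distance in kb from the outermost annotated start along the direction of transcription, and the height of each stem is the fold enrichment. Dark bars are gene bodies, the pale band adds 50 kb to either side, and the grey stem at MYCL lies outside it. Of the 6 peaks inside the bands, 1 is at the start of MAX, 2 at an internal start of MXI1, and none is near MYC.

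The H3K27ac CUT&Tag list held no peak within the bodies and 50 kb of the 5 genes, where 11.3% of all protein-coding genes had one. Its nearest peaks lay 235 kb from MYC, 272 kb from PVT1, 356 kb from MYCL, 199.5 kb from MXI1 and 1884 kb from MAX. With 0.421 peaks per Mb the list was sparse. The missing peaks say that no stretch passed the caller's p-value threshold, not that the histone mark was absent. The part that depth played was not tested.

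Across the MYC network HSF1 peaks lay at the starts of MYCN, MAX and every antagonist examined, and at none of MYC, MYCL or the MLX branch. Of the 13 genes, 8 had an HSF1 peak within 1 kb of a transcript start, or 61.5% (Wilson interval 35.5% to 82.3%), where 25.6% of all protein-coding genes did. MAX and MXI1, the pair named in the rule, both had one and are counted among the 8. They were chosen with earlier results of these data known. Counting the outermost start alone, 5 of the 13 had one, where 21.9% of all protein-coding genes did. The list was drawn up with earlier results of these data known, so its share is a description and not evidence for the network.

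Of the MYC family, MYCN had a peak 145 bp from a start, with a pileup of 17 and a fold enrichment of 6.92. Of the antagonists, MXD1 had the strongest peak, with a pileup of 47 (34.5 to 62.5) and a fold enrichment of 13.6, above 99.3% of all HSF1 peaks. It lay 17007 bp from the outermost start of MXD1 and 346 bp from an internal one. MXD4 had a peak with a pileup of 30 and a fold enrichment of 7.79, 175 bp from its outermost start. MNT, a broadly expressed partner of MAX, had 2 peaks within 1 kb of a start. The highest had a pileup of 27 and a fold enrichment of 6.70, 680 bp from a start and 1338 bp from the outermost one. The other peak was the one at the outermost start. MXD3 had a peak with a pileup of 23 and a fold enrichment of 6.15. MGA, which represses through MAX and a Polycomb complex, had a peak with a pileup of 10 and a fold enrichment of 6.25, 174 bp from an internal start and 39507 bp from the outermost one.

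The pileups at MXD1, MXD4, MNT and MXD3 thus ran from 23 to 47, beside 9 to 12 at MAX, MGA and MXI1. MLX, the partner of the glucose-sensing factors, had its nearest HSF1 summit 109114 bp from a start. MLXIP and MLXIPL, the factors themselves, had theirs 90462 bp and 18688 bp from a start. Of the 13 genes 1, MXD1, had an H3K27ac CUT&Tag peak within 1 kb of a start, where 3.37% of all protein-coding genes did. The median fold enrichment of the 8 genes was 6.47, beside 7.29 over all 5137 protein-coding genes with an HSF1 peak at a start.

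Motifs were searched on both strands within 100 bp of the summits of the 6 HSF1 peaks near the 5 genes and of the highest peak at each of the 6 other network genes. The E-box CACGTG, the site of MYC and MAX, was in 5 of the 12 windows (MAX, SMNDC1, MXD3, MXD4 and MNT), and in 5.81% of the windows of all 7147 HSF1 summits. Among windows with at least 60% G and C it was in 4 of 9, and in 7.18% over all 4385 such HSF1 windows, a limit also chosen after seeing the data. The CCAAT box was in 7 of the 12 windows, among them both PVT1 peaks, and in 30.7% of all. With at least 60% G and C it was in 4 of 9 and in 29.9% over all such windows. The GC box GGGCGG was in 5 of the 12 and in 48.2% of all. With at least 60% G and C it was in 5 of 9 and in 68.5% over all such windows. The heat shock element, 3 inverted GAA units written GAANNTTCNNGAA or its complement TTCNNGAANNTTC, was in 0 of the 12 and in 0.196% of all. These matches are of letters and do not show which factor was bound. Each motif was counted whether or not it overlapped another.

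Of the genes that act with or on MYC, those for MYC turnover had HSF1 peaks at a start most often, 6 of 7, beside the 25.6% of all protein-coding genes. Among the highest were those at HUWE1, a ubiquitin ligase, with a pileup of 42 and a fold enrichment of 10.9, and at GSK3B, the kinase that marks MYC for degradation, with a pileup of 59 and a fold enrichment of 10.8. The kinase gene AURKA had 9.82 in fold enrichment. Of the MYC cofactors 4 of 10 had a peak, with the acetyltransferase gene EP300 at a fold enrichment of 8.76, the helicase genes RUVBL1 at 8.24 and RUVBL2 at 7.27, and the acetyltransferase gene KAT5 at 7.14. Of 20 known MYC target genes 9 had a peak, with the cell cycle kinase gene CDK4 at 10.1, the nucleolar protein genes NPM1 at 10.0 and NCL at 7.20, and the replication helicase gene MCM7 at 6.39. At GSK3B and EP300 the nearest annotated start to the summit was that of another gene, so these peaks are not particular to the gene listed.

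Peak lists do not check the cell type as RNA would. HSF1 peaks lay at a start of 2 of 9 hepatocyte genes (APOB and HNF4A), 1 of 3 cholangiocyte genes (EPCAM), 1 of 3 fibroblast genes (COL1A1) and 0 of the 4 blood and endothelial genes, beside the 25.6% of all protein-coding genes. At HNF4A and EPCAM the nearest annotated start was that of another gene.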

How the data were processed

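Peak lists of 4 Huh7 libraries were used, 1 per condition, grouped by their labels. Peaks were called by the authors in MACS2, version 2.1.1.20160309 for ChIP-seq, with the input as control and a q-value threshold of 0.05, and version 2.1.4 for CUT&Tag, with no control library and a p-value threshold of 1e-05. The deposited pileup is a signal, the deposited fold enrichment is a ratio of pileup plus 1 to local background plus 1, and the deposited significance values are -log10 of a p-value or q-value of the caller's Poisson model. The build is given as hg19 with BWA in the ChIP-seq headers, and as hg38 with Bowtie2 in the study's methods. In the ChIP-seq lists 228 siNC and 234 siHSF1 peaks end beyond an hg38 chromosome, so hg19 was taken, and positions were not converted between builds. CUT&Tag lists were read on hg38 with GENCODE release 44 and all annotated starts.

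The autosomes, X and Y were kept. Peaks sharing 1 bp were merged into regions, and the highest value per list was compared. The local background is (pileup + 1)/fold enrichment - 1. Members and lists were chosen with earlier results of these data known. All members and network genes are named, and of other lists at most 4 genes with the highest HSF1 fold enrichment at a start. Intervals are exact Poisson or binomial for pileups and their ratios, Wilson for shares, and from order statistics for medians. The functions were tested on simulated data, and all 8 planted values were recovered. Alternatives were stricter peaks, other overlaps, scalings, stitching distances and windows. The analysis ran in Python 3.11.15 with SciPy 1.17.1, NumPy 2.4.6, pandas 2.3.3, matplotlib 3.10.9 and pysam 0.24.0. Columns of other samples numbered 0. The genes TMEM75 and CCAT1 were not matched in the annotation. Some items are not reported here.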

Additional observations from a re-analysis of the deposited data

How the results depend on the processing

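Of 21 alternatives over the results at these loci, 18 left the value within its interval or within 1.5 times. The median log2 ratio of fold enrichment at the shared regions, -0.08, became -0.50 with pileup scaled for library size, a measure whose median over all shared regions was -0.53. It turned to 0.26 with the scaled pileup per bp of fragment and to 0.22 with pileup over background without the added 1, both within the interval of the main value, which spans 0. The rank of the stitched region that holds region C, 423 in siHSF1, became 93 with no stitching, where single peaks are ranked. In siNC it became 1086 from 1265, which is above the cutoff of 1374 peaks, so the region was then above the cutoff in both lists. The number of MYC network genes with an HSF1 peak at a start, 8, became 5 with the outermost start alone. In the MYCL window neither list held a peak, so no ratio of peak number or height and no alternative could be given there. No paired analysis was possible because each condition had 1 library.

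Depth limits these comparisons. Summits in the window held 6 to 38 tags, so every pileup interval at a shared region overlapped that of the other library. The H3K27ac CUT&Tag list rests on 896393 tags. The libraries differ in fragment extension as well as in siRNA. The 2 cannot be told apart for peak length, pileup, local background or fold enrichment. HSF1 peaks were called without a control library, and their specificity was not tested.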

Other observations

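Around MYC there was a gap in the HSF1 list, which held 2.31 peaks per Mb. How common gaps of this length are was not counted. From the peak near CASC19, 520 kb to the left of MYC, to the peak in PVT1, 434 kb to its right, no HSF1 peak was called. MAX had its next HSF1 peaks 465 kb to its left, near the heat shock gene HSPA2, with a fold enrichment of 10.4, and 124 kb to its right. MXI1 had its next peak 199 kb to its left, near ADD3, which encodes an adducin of the membrane skeleton, with a fold enrichment of 6.96. MYCL had its next peak on the other side 138 kb away, near CAP1, which encodes an actin regulator, with a fold enrichment of 7.47. These genes were named after their values were seen.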
